A study of Mus musculus with 10 samples.

Results

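Germinal centre (GC) B cells of 2 heavy chain transgenic mouse lines, called B1-8 and V23, were compared 14 days after immunization. The comparison rests on 6 of the 10 microarrays of the study, 3 from B1-8 and 3 from V23, chosen by their sample titles. Mice of both lines were on the Balb/c background, carried an immunoglobulin heavy chain transgene and lacked the endogenous JH locus through a targeted deletion. The labels give the genotypes as VH186.2-Tg JH KO for B1-8 and V23-Tg JH KO for V23. Both lines received 50 µg of NP-CGG, the hapten NP on chicken gamma globulin, by intraperitoneal injection in alum. Spleen cells that stained as λ+ PNA+ B220+ were sorted, and biotin-labelled cRNA from their total RNA was hybridized to Affymetrix whole-genome mouse expression arrays. The other 4 arrays, from naive B cells of unimmunized Balb/c spleens, enter below as a reference level and in the estimate of the spread. The labels do not say whether the replicates are separate animals, so the p-values measure the spread between these samples, which may be partly technical. With 1 transgene for each line, affinity and any other difference between the transgenes cannot be told apart.

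Paired with λ light chains, the B1-8 heavy chain gives a receptor that binds NP more strongly than the receptor of V23, so the comparison sets GC B cells of higher and lower antigen affinity side by side. In a germinal centre, B cells divide and mutate their receptors in the dark zone, then take up antigen and meet follicular helper T cells in the light zone. Cells that receive help induce MYC and growth metabolism and return to the dark zone, and antigen receptor signals in GC B cells are damped by phosphatases and inhibitory coreceptors.

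Probe set signals were taken on the log2 scale as deposited, without further normalization. The arrays had the same trimmed mean of unlogged signal, 500, and medians from 6.70 to 6.85 in the 6 GC samples. Each gene was read from its probe set with the highest mean, and 17204 genes with a signal above 4 on at least 3 arrays were tested with limma. Every difference below is B1-8 minus V23 on the log2 scale, followed by its standard error, and a gene was called at a Benjamini-Hochberg adjusted p under 0.05 over all tested genes. The λ gate could be set against light chain genes. Iglv1 (1430523_s_at), a λ light chain gene, was at 14.28 ± 0.21 (SD, n = 3) in B1-8 and 14.14 ± 0.15 (n = 3) in V23, against 14.29 in naive B cells. Igkv8-30 (1452463_x_at), a κ variable gene whose probe set can share sequence with other κ genes, was at 13.48 in B1-8 and 13.21 in V23, against 2.57 in naive B cells, and was named after its values were seen. Probe sets shared by several κ symbols, Igkc among them, were at 13.53 to 14.36 in the lines and 4.64 to 6.73 in naive cells, also chosen after their values were seen. The source of the κ signal in a λ+ sort was not tested. Neutrophil markers were also high in both lines, with list means of 10.23 to 10.25 in B1-8, 9.64 to 10.51 in V23 and 6.62 to 8.44 in naive samples. In bulk RNA, more cells of a type and more RNA per cell cannot be told apart.

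The expression profiles of the 2 lines were about as similar to each other as replicates of 1 line were. Across the tested genes, Pearson's r averaged 0.955 within B1-8, 0.953 within V23 and 0.954 between the lines, with ranges that overlapped. In a principal component analysis of the 6 GC arrays, the first component carried 23.8% of the variance and did not order the arrays by line. V23 replicate 1, at −24.39, lay between B1-8 replicate 1, at −46.58, and B1-8 replicates 3 and 2, at −8.32 and 6.70. By limma, 4 genes were called, 0.0233% of those tested. Cd2 was higher in B1-8 (0.00581% of tested genes) and Asns, Cck and Zcchc14 were lower (0.0174%). Without adjustment, 822 genes were higher in B1-8 (4.78%) and 506 were lower (2.94%), together 7.72%. All 3 B1-8 arrays lay above all 3 V23 arrays for 1217 genes (7.07%) and below them for 1140 genes (6.63%). Centring each array on its median changed the unadjusted split to 521 higher and 703 lower, and quantile normalization changed it to 693 and 689. Centring also moved the median of all genes from 0.005 to −0.04, and the list medians given below with it. Fitted by limma to the 6 GC arrays alone, with fewer arrays behind the spread, no gene was called, and 621 and 468 genes had an unadjusted p under 0.05 with the higher and the lower signal in B1-8.

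For most genes of good signal the data bound the difference closely. The 95% interval of the difference lay within 2-fold in either direction for 10891 genes (63.3%). This share was 98.4% among genes with a mean above 10 on the log2 scale and 93.6% between 8 and 10. It dropped to 56.8% between 6 and 8 and to 7.9% below 6, where the residual SD was largest. Differences of low-signal genes are therefore poorly bounded in either direction.

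**Figure D1:**
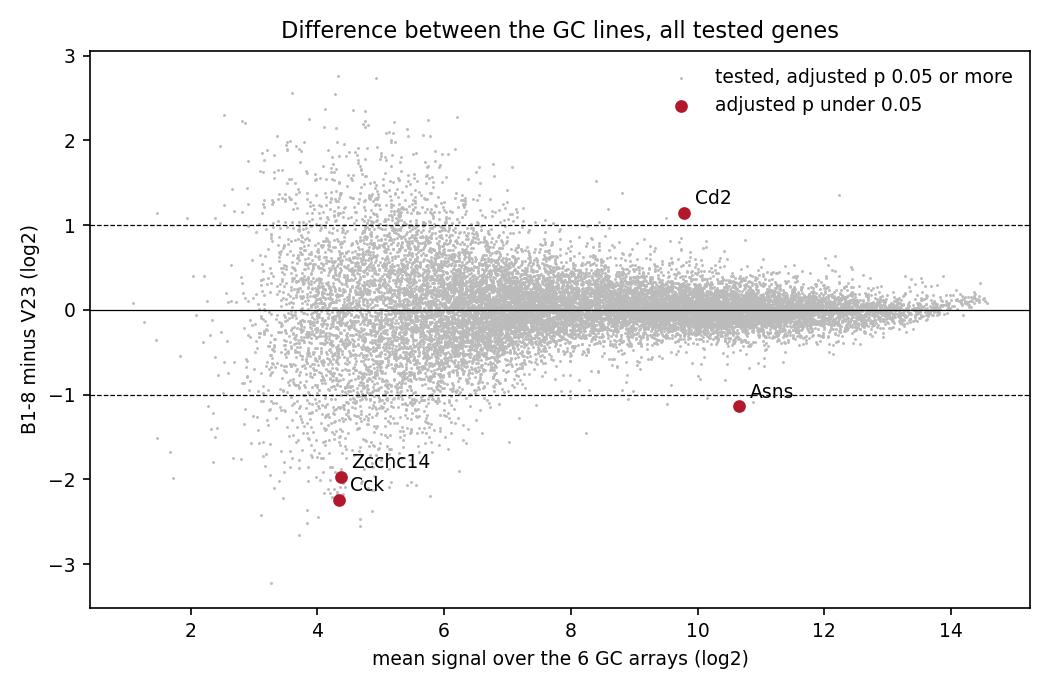
Each point is 1 of the 17204 tested genes, with its mean log2 signal over the 6 GC arrays on the x axis and the B1-8 minus V23 difference (log2) on the y axis. The 4 called genes are red, the dashed lines mark 2-fold, and the scatter narrows as the signal rises: Asns and Cd2 stand apart at high signal, while Cck and Zcchc14 lie among widely scattered low-signal genes.

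Asns, the asparagine synthetase gene and a classical target of the stress-responsive factor ATF4, was lower in B1-8. Its signal (1451095_at) was 10.07, 10.14 and 10.04 in the B1-8 samples and 11.19, 11.12 and 11.36 in the V23 samples. All B1-8 arrays were low and all V23 arrays high, with no overlap and a gap many times the spread within a line. The difference was −1.14 ± 0.10, so that the V23 level was 2.20-fold the B1-8 level (limma adjusted p = 0.0369, 95% interval −1.37 to −0.91). Naive B cells were lower than both lines in signal, at 8.93 ± 0.11 (SD, n = 4). A second Asns probe set, 1433966_x_at, differed by −1.34 ± 0.18. The difference ranged from −1.24 to −1.07 over all 22 alternatives, but the call did not: its adjusted p ran from 0.00022 to 0.766. Of the fits without 1 array, the one without V23 replicate 2 still called Asns (adjusted p = 0.0304), and leaving out any of the other 9 arrays gave an adjusted p up to 0.128.

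Asns belongs to a list of 25 tested genes of amino acid supply and the ATF4 response, for which 9 members had an unadjusted p under 0.05 with the lower signal in B1-8 (2.94% of all genes) and 1 with the higher (4.78%). The median difference over the list was −0.26, beside 0.005 over all tested genes, and 19 of 25 differences were negative. The list mean was 9.47 to 9.55 on the B1-8 arrays and 9.65 to 9.81 on the V23 arrays, without overlap. Asns is the one member called. The members and the list were chosen with earlier results of these data known, so the count is a description.

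Among the transporters, Slc7a5 (1418326_at), the light subunit of the LAT1 carrier of large neutral amino acids, was at 10.74, 10.07 and 10.16 in B1-8 and 11.53, 11.29 and 11.43 in V23. The groups did not overlap, with B1-8 replicate 1 the nearest to V23. The difference was −1.09 ± 0.20, near that of Asns in size but with more spread (adjusted p = 0.252, and 0.042 with an intensity trend and robust moderation, the single one of 22 alternatives that called it). Slc3a2, which encodes the heavy subunit of the same carrier, differed by −0.08 ± 0.09, with an interval from −0.29 to 0.13.

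Among the enzymes, Shmt2 (1455084_x_at), the mitochondrial serine hydroxymethyltransferase that feeds folate metabolism, was at 11.89, 11.98 and 11.79 in B1-8 and 12.33, 12.51 and 12.36 in V23. Again no array of one line reached the other, and the difference was −0.52 ± 0.10 (adjusted p = 0.252), or −0.29 averaged over its 4 probe sets. The Shmt2 probe set 1426423_at differed by −0.61 ± 0.17, and the remaining ones by −0.17 ± 0.27 (1455985_x_at) and 0.14 ± 0.62 (1434204_x_at). The serine synthesis pathway showed small differences of the same sign. Phgdh, its first enzyme, differed by −0.26 ± 0.08, Psat1 by −0.35 ± 0.15 and Psph by −0.27 ± 0.12. Aldh18a1, an enzyme of proline synthesis, differed by −0.30 ± 0.09. None of these passed the adjusted threshold, with adjusted p from 0.503 to 0.65. Averaged over their probe sets, Phgdh differed by −0.41 and Aldh18a1 by −0.15.

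Among the regulators, Atf5, a transcription factor of the same stress response, was at 8.91 ± 0.08 in B1-8 and 9.31 ± 0.07 in V23, a difference of −0.40 ± 0.10 (adjusted p = 0.448). Trib3, a pseudokinase induced by ATF4, was at 6.57, 7.13 and 6.47 in B1-8 and 7.66, 7.35 and 7.75 in V23, without overlap but at a modest signal. Its difference was −0.87 ± 0.23 (adjusted p = 0.459). Eif4ebp1, a translation repressor that ATF4 also induces, differed by −0.37 ± 0.13. Atf4 itself (1448135_at) differed by −0.16 ± 0.13, with overlapping arrays and an interval from −0.47 to 0.14, and its sign changed with the mean of its probe sets. Eif2ak3, which encodes the endoplasmic reticulum kinase PERK upstream of ATF4, went the other way at 0.32 ± 0.09 (adjusted p = 0.482). The list members other than Asns, Slc7a5, Shmt2 and Atf5 were named after their values were seen.

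**Figure D2:**
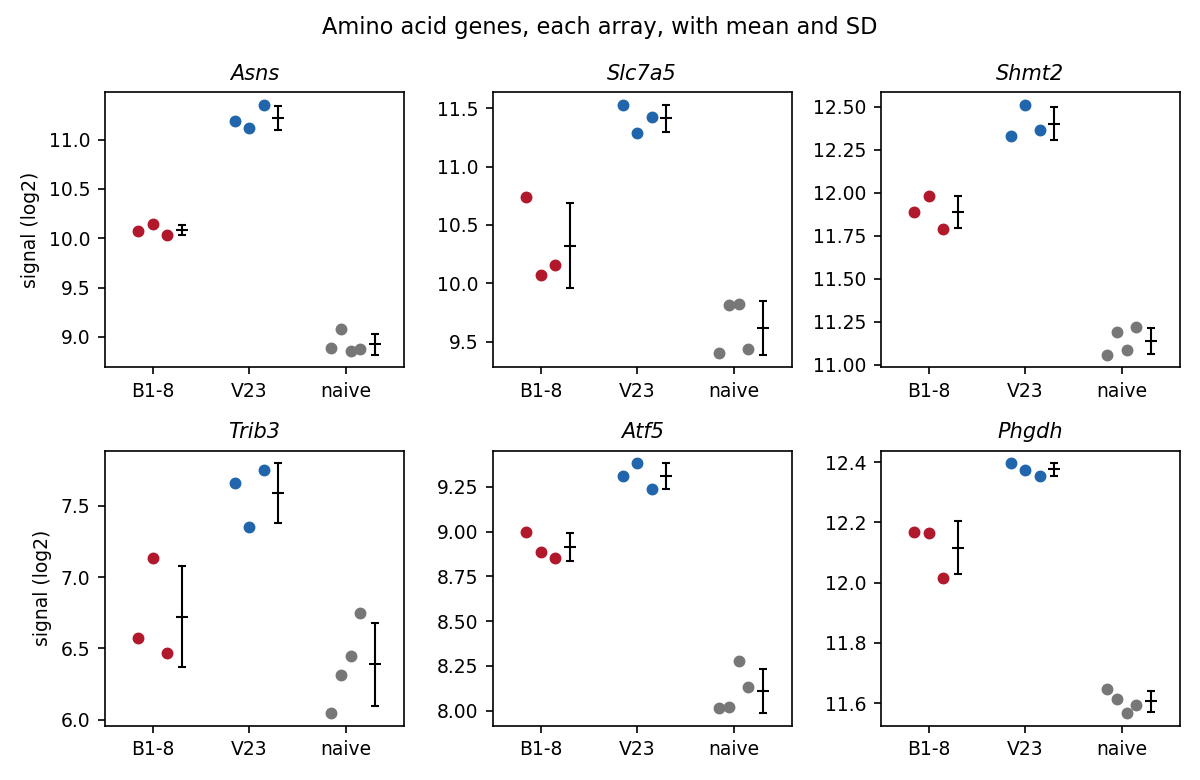
Log2 signal of 6 amino acid genes on each array (points), with the mean and SD of each group beside them; the y axes differ between panels and do not start at 0. In each panel the 3 B1-8 points lie below the 3 V23 points, most widely apart for Asns (10.04 to 10.14 against 11.12 to 11.36).

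Asns, Trib3 and Eif4ebp1 are known targets of ATF4. The promoter windows of the list members were therefore searched for the core of the ATF4 binding element, TGATGNAA, on both strands. The windows come from RefSeq on the GRCm38.p6 build and run from 250 bases before to 50 bases after each annotated start. They were found for 22 of the 25 list members, and Slc7a5 and Eif4ebp1 were not among them. The motif occurred in 1304 of 32851 windows of all genes (3.97%) and in those of 6 list members, namely Asns, Chac1, Nupr1, Slc7a11, Trib3 and Vldlr. Of the 7 searched members with the lower signal in B1-8 at an unadjusted p under 0.05, Asns and Trib3 held it. The longer form TGATGAAAC, which occurred in 0.247% of windows, was found in Asns, on the gene's strand and 23 bases upstream of its start. The Trib3 match lies on the opposite strand, 14 bases downstream of the start. Both windows are shown 5′ to 3′ on the gene's strand, the minus strand at chr6:7693160-7693459 for Asns and at chr2:152344011-152344310 for Trib3, with the motif in capitals. A match describes these letters and does not show that a factor binds there.
Asns: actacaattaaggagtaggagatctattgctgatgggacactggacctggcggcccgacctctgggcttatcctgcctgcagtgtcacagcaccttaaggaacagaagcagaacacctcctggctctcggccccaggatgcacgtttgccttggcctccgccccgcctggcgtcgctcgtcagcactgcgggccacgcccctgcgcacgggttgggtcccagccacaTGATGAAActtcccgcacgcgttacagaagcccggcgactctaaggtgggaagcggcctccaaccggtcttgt
Trib3: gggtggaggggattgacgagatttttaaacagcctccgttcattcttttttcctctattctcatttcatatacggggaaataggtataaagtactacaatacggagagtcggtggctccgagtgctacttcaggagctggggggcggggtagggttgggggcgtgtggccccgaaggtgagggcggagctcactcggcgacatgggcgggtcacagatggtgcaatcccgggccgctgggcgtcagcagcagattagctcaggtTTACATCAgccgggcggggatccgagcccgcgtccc

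Cd2, which encodes an adhesion receptor of T cells and mouse B cells, was higher in B1-8. Its signal (1418770_at) was 10.28, 10.24 and 10.57 in B1-8 and 9.25, 9.34 and 9.06 in V23. All B1-8 arrays were above all V23 arrays, and both lines were below naive B cells at 11.88 ± 0.05 (SD, n = 4). The difference was 1.15 ± 0.12, or 2.21-fold (limma adjusted p = 0.0369, 95% interval 0.88 to 1.41). It stayed between 1.05 and 1.21 over all 22 alternatives, with adjusted p from 0.00022 to 0.766, and was called in 7 of them. Of the fits without 1 array, the one without V23 replicate 2 still called Cd2 (adjusted p = 0.0369), and leaving out any of the other 9 arrays gave an adjusted p up to 0.138.

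T cell markers leaned the same way as Cd2, and their part in its difference was not tested. Of 19 tested T cell markers, Cd2 included, 14 differences were positive and the median was 0.56. Cd3d was at 7.90, 8.64 and 8.24 in B1-8 and 7.93, 7.61 and 7.21 in V23, and Cd3g was at 7.43, 7.93 and 7.92 and at 7.54, 6.93 and 6.78. For both, V23 replicate 1 overlapped the B1-8 range, and the differences were 0.67 ± 0.30 and 0.68 ± 0.30 (adjusted p = 0.651 for each). Lat, an adaptor of the T cell receptor, differed by 0.59 ± 0.20 without overlap. The marker mean was 7.15 to 7.35 in B1-8, 6.72 to 7.16 in V23 and 6.97 to 7.63 in naive samples. Without V23 replicate 2 the median was 0.35, and with array weights it was 0.37.

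Cck and Zcchc14, the other called genes, were read near background. Cck (1419473_a_at), a peptide hormone gene, was at 3.50, 3.11 and 3.08 in B1-8 and 5.66, 5.70 and 5.04 in V23. Zcchc14 (1418168_at), a zinc finger gene, was at 3.51, 3.60 and 3.07 in B1-8 and 5.47, 5.47 and 5.15 in V23. The groups did not overlap for either gene, but all B1-8 arrays lay under the signal of 4 used as a minimum. The differences were −2.24 ± 0.23 (limma adjusted p = 0.0369) and −1.97 ± 0.21 (adjusted p = 0.0457). With values below 4 raised to 4 they were −1.47 and −1.36 and no longer called. Averaged over its 4 probe sets, Zcchc14 differed by −0.69.

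Beyond the called genes, those with the smallest p included several membrane and signalling genes with the higher signal in B1-8. Plbd1 (1448786_at), a phospholipase B-like protein, was at 10.98, 11.31 and 11.23 in B1-8 and 10.43, 10.34 and 10.25 in V23, a difference of 0.83 ± 0.11 (adjusted p = 0.145). Inpp4a, a phosphatase of the phosphoinositide pathway, differed by 0.77 ± 0.11, Pld3, a lysosomal phospholipase D family member, by 0.81 ± 0.14 and Plcg1, phospholipase Cγ1, by 0.62 ± 0.10. No array of one line reached the other for these 4 genes, and the adjusted p ran from 0.145 to 0.243. Averaged over the probe sets of a gene, the difference was 0.12 for Plcg1 and 0.16 for Inpp4a, whose second probe set, 1421360_at, differed by −0.45 ± 0.21. A4gnt, Ak7, Sfxn4, Zfp874b and Rps15a-ps6 had similar p at V23 levels of 3.23 to 6.42, where single probe sets are imprecise.

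Among genes with a mean of at least 8 in the higher line and no overlap, probe sets ending in _x_at left out, the widest differences toward B1-8, besides Cd2, were those of Apbb3 at 1.52 ± 0.47, Malat1 at 1.36 ± 0.26, Ighv14-2 at 1.08 ± 0.27 and Nlrc5 at 1.04 ± 0.24. Malat1 (1418189_s_at), an abundant nuclear long noncoding RNA, was at 13.25, 12.38 and 13.09 in B1-8 and 11.97, 11.35 and 11.33 in V23, with naive cells at 14.09 ± 0.16. All 7 of its probe sets had the higher mean in B1-8, by 0.23 to 1.36, with a mean of 0.85. Without V23 replicate 3, Apbb3 differed by 0.94. Cfp, which encodes properdin of the complement system, Cd55, which encodes a complement decay factor, Capg, an actin capping protein, Gm30054 and the chemokine Ccl5 followed at 0.84 to 0.96, of which Cfp came to 0.55 and Capg to 0.46 as the mean of their probe sets. None was called, with adjusted p from 0.252 to 0.544.

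Toward V23, the widest such difference was that of Eya1 (1457424_at), a transcriptional coactivator and phosphatase, at 7.80, 7.35 and 7.40 in B1-8 and 9.14, 8.81 and 8.97 in V23. The lines were well apart, at −1.46 ± 0.25 (adjusted p = 0.243), and naive cells were at 6.72 ± 0.43. Smad1, a transducer of BMP signals, was at 8.64, 8.18 and 8.20 in B1-8 and 9.10, 9.42 and 9.32 in V23, a difference of −0.94 ± 0.18 (adjusted p = 0.252). Gpaa1 and Pigt, which encode 2 subunits of the transamidase that attaches GPI anchors, differed by −1.04 ± 0.33 and −0.88 ± 0.26 in their brightest probe sets. The other Gpaa1 probe sets, 1448225_at and 1455954_x_at, differed by 0.19 ± 0.22 and −0.03 ± 0.30, so that the mean over probe sets was −0.29 for Gpaa1, and it was −0.49 for Pigt. Tbc1d4, Vps37b, Palm and Celsr1 lay between −1.05 and −0.95, Dab2ip, a Ras GTPase activator, at −0.77 and Opn3 at −0.58. As the mean of probe sets, Tbc1d4 came to −0.67 and Palm to −0.59. Nanog, AY074887 and 1700026J12Rik had similar p at a signal of 3.24 to 5.67 in B1-8. Nanog was above 4 on its V23 arrays alone, at 5.07 to 5.68, so it passed the signal filter only through the line where it was higher. None of these genes passed the adjusted threshold.

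No gene that defines the germinal centre state passed the test, beside 0.0233% of all tested genes. Bcl6 (1421818_at), the transcription factor that GC B cells need, was at 12.90 ± 0.05 in B1-8 and 12.87 ± 0.03 in V23, against 11.77 ± 0.26 in naive cells. Its difference was 0.04 ± 0.15, with an interval from −0.30 to 0.38, and turned to −0.01 with median centring. S1pr2, the receptor that keeps B cells within the follicle centre, differed by −0.02 ± 0.50, with an interval from −1.15 to 1.11 that reaches past 2-fold in both directions, and its sign changed with quantile normalization. The 4 naive arrays, which share in the estimate of the spread, had an SD of 0.99 for it. Ezh2, the histone methyltransferase of dividing GC cells, differed by −0.07 ± 0.20 and Fas, the death receptor, by −0.14 ± 0.20. Of 24 tested GC identity genes, none had an unadjusted p under 0.05 (7.72% of all genes) and 18 had an interval within 2-fold. The median was 0.03, which turned to −0.02 with median centring. Irf8, a transcription factor of GC B cells, differed by 0.17 ± 0.10 (adjusted p = 0.753).

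Light zone genes tended to the higher side in B1-8, by small amounts. Of 22 tested members, 21 differences were positive, 5 had an unadjusted p under 0.05 with the higher signal in B1-8 (4.78% of all genes) and none with the lower, and the median was 0.15. The list mean was 10.82 to 10.96 in B1-8, 10.63 to 10.76 in V23 and 11.22 to 11.28 in naive cells. Nfkbie (1458299_s_at), an inhibitor of NF-κB that NF-κB itself induces, was at 11.32, 11.41 and 11.52 in B1-8 and 11.05, 10.97 and 10.89 in V23. The lines did not overlap, and the difference was 0.45 ± 0.10 (adjusted p = 0.3). Nfkbia, the related inhibitor IκBα, differed by 0.39 ± 0.12, or 0.21 as the mean of its probe sets. Egr3 and Egr1, immediate early genes of antigen receptor signalling, differed by 0.41 ± 0.14 and 0.28 ± 0.11, and Nr4a1, another such gene, by 0.33 ± 0.15. The activation markers of light zone cells differed less: Cd83 by 0.12 ± 0.09, Cd86 by 0.05 ± 0.14 and Cd40 by 0.22 ± 0.19. Myc, which marks the few cells selected by T cell help, differed by 0.21 ± 0.19, with an interval from −0.22 to 0.64.

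Of 13 dark zone genes, 9 differences were negative, with a median of −0.20 that was −0.08 with the mean of probe sets. The members without overlap, Aurka, Plk1, Kif20a and Nek2, are mitotic genes (6.63% of all genes lay below in this way), Nek2 being named after its values were seen. Cxcr4, the chemokine receptor that holds cells in the dark zone, differed by 0.14 ± 0.32, at 12.62 to 12.83 in B1-8 and 12.48 to 12.69 in V23. For Cxcr4 the lines overlapped.

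Genes of mitosis shared a direction without passing the test singly. Of 27 tested mitotic genes, 26 differences were negative, and for 18 all B1-8 arrays lay below all V23 arrays (6.63% of all genes). The median was −0.28, which ranged from −0.33 to −0.20 over the alternatives. The list mean was 11.43, 11.41 and 11.28 in B1-8 and 11.56, 11.66 and 11.73 in V23, against 8.04 to 9.29 in naive samples. No member had an unadjusted p under 0.05 (7.72% of all genes) in the fit that takes the spread over all 10 arrays. Plk1, the polo-like kinase of mitotic entry, was at 10.98, 10.83 and 10.69 in B1-8 and 11.32, 11.26 and 11.33 in V23, with a difference of −0.47 ± 0.37. The SD of Plk1 was 0.14 in B1-8, 0.04 in V23 and 0.75 in naive samples. Aurka, the Aurora A kinase of the spindle pole, differed by −0.39 ± 0.20, Prc1, which bundles the central spindle, by −0.57 ± 0.34, or −0.29 without V23 replicate 3, and Cdk1, the mitotic kinase, by −0.23 ± 0.27. Mki67, the proliferation marker Ki-67, differed by −0.12 ± 0.41, with overlapping arrays.

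Of 27 tested DNA replication genes, 24 differences were negative, 1 had an unadjusted p under 0.05 with the lower signal in B1-8 (2.94% of all genes), and the median was −0.15, or −0.07 without B1-8 replicate 3. Mcm2, a subunit of the replicative helicase, was at 12.07 ± 0.07 in B1-8 and 12.36 ± 0.06 in V23 (−0.29 ± 0.16), and Mcm3 differed by −0.17 ± 0.15. Cdkn1b (1434045_at), which encodes the inhibitor p27 of G1 progression, was at 9.16 ± 0.14 in B1-8 and 8.49 ± 0.13 in V23, without overlap, a difference of 0.66 ± 0.13 (adjusted p = 0.252). A second Cdkn1b probe set, 1419497_at, went the other way at −1.44 ± 0.29. It was at 4.49 in B1-8 and 5.92 in V23, a range in which differences are poorly bounded. The mean of both probe sets was −0.39. Cdk6, a kinase of G1, differed by −0.35 ± 0.13, Ccnd2 by 0.19 ± 0.09 and Ccnd3, the D cyclin of GC cells, by −0.14 ± 0.14, which turned to 0.32 with the mean of its probe sets.

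Among 28 tested inhibitory receptors and phosphatases, 26 differences were positive, and 8 had an unadjusted p under 0.05 with the higher signal in B1-8 (4.78% of all genes) and none with the lower. The median was 0.15, and the list mean was 10.54 to 10.57 in B1-8, 10.24 to 10.42 in V23 and 11.00 to 11.02 in naive cells. Cd72 (1426112_a_at), an inhibitory coreceptor that recruits the phosphatase SHP-1, was at 12.51, 12.31 and 12.64 in B1-8 and 12.02, 11.76 and 11.76 in V23. No arrays overlapped, and the difference was 0.64 ± 0.12 (adjusted p = 0.252, and 0.0308 with an intensity trend and robust moderation). Cblb, a ubiquitin ligase that restrains receptor signalling, differed by 0.40 ± 0.11 and Siglecg, a sialic acid binding inhibitory receptor, by 0.48 ± 0.16. Ptpn6, which encodes SHP-1 itself, was at 13.33 ± 0.08 and 13.31 ± 0.03, a difference of 0.03 ± 0.09 that turned to −0.02 with median centring. Its interval, −0.17 to 0.22, bounds the difference well within 2-fold. Fcgr2b, the inhibitory Fc receptor, differed by 0.16 ± 0.12, which turned to −0.03 with the mean of its probe sets.

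The antigen receptor pathway itself was close between the lines. Of 30 tested members, all had an interval within 2-fold, 2 had an unadjusted p under 0.05 with the higher signal in B1-8, a share near the 4.78% of all genes, none with the lower, and the median was 0.09. Nfatc1 (1428479_at), a calcium-dependent transcription factor, was at 11.50, 11.73 and 11.70 in B1-8 and 11.14, 11.20 and 11.03 in V23. This difference of 0.52 ± 0.11 separated all arrays (adjusted p = 0.278). Cd79a, the signalling subunit of the receptor, differed by 0.30 ± 0.16 with overlap. Dusp6, a phosphatase that ERK signalling induces, differed by 0.62 ± 0.20. Of 21 NF-κB genes, 5 had an unadjusted p under 0.05 with the higher signal in B1-8, against 4.78% of all genes, Nfkbie and Nfkbia among them, and the median was 0.14, or 0.07 without B1-8 replicate 1.

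**Figure D3:**
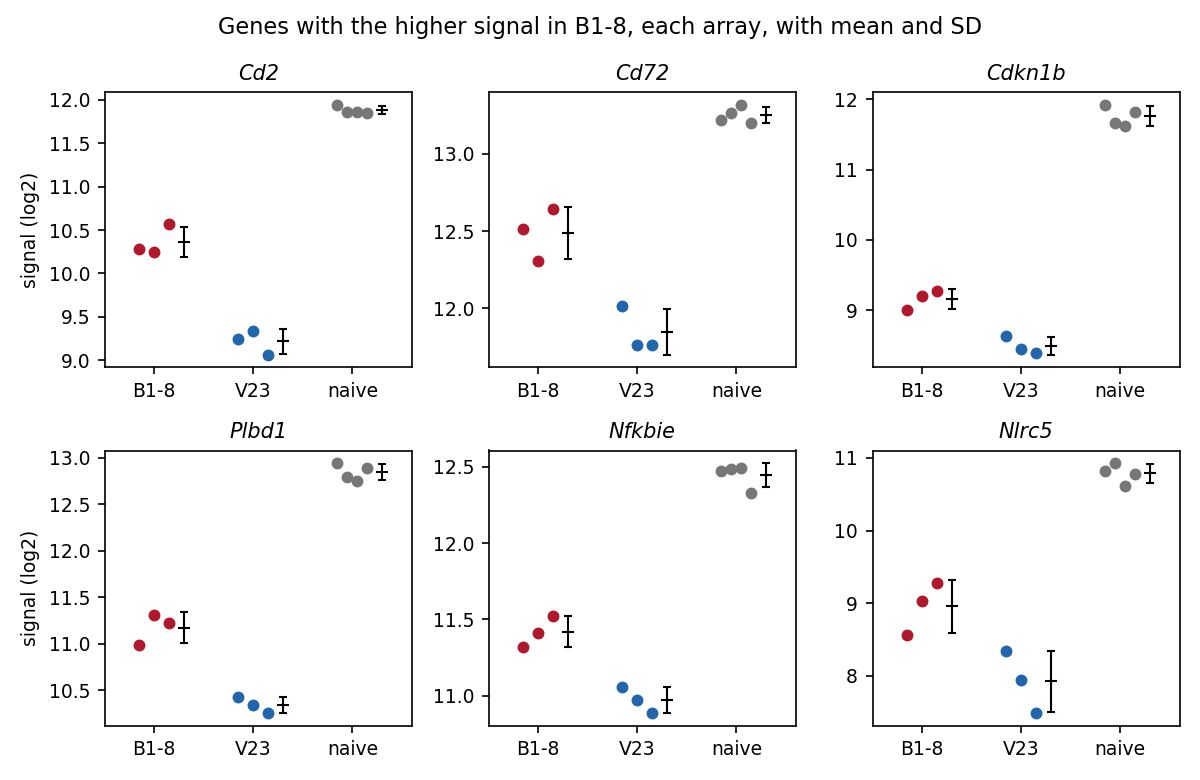
Log2 signal of 6 genes on each array (points), with the mean and SD of each group beside them; the y axes differ and do not start at 0. For each gene the 3 B1-8 points lie above the 3 V23 points and below the 4 naive points, as for Cd2 at 10.24 to 10.57 against 9.06 to 9.34.

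Of 17 tested genes of MHC class I presentation, 13 differences were positive, 5 had an unadjusted p under 0.05 with the higher signal in B1-8 (4.78% of all genes) and none with the lower (2.94%), and the median was 0.13. Nlrc5 (1437176_at), the transactivator of class I genes, was at 8.56, 9.03 and 9.28 in B1-8, 8.34, 7.94 and 7.48 in V23 and 10.79 ± 0.13 in naive cells. The lines did not overlap, though B1-8 replicate 1 and V23 replicate 1 were close, and the difference was 1.04 ± 0.24 (adjusted p = 0.37). Other class I genes differed less, H2-M3 at 0.46 ± 0.13 and Tap1, the peptide transporter, at 0.34 ± 0.12. Cd1d1, which presents lipids, differed by 0.53 ± 0.18 at a signal far below the 11.95 of naive cells. Class II genes had a median of 0.14 over 19 members, or 0.09 without V23 replicate 3, and H2-Oa, a modulator of peptide loading, differed by 0.40 ± 0.11. Of 25 interferon response genes, 22 differences were positive and the median was 0.21, with 5 members at an unadjusted p under 0.05 higher in B1-8 (4.78% of all genes) and 1 lower (2.94%). Xaf1, at 8.20 to 8.29 in B1-8 and 7.75 to 7.89 in V23 (0.44 ± 0.09, adjusted p = 0.252), Oas1a at 0.70 ± 0.20 and Irf9 at 0.28 ± 0.09 were higher in signal in B1-8, and Ifit2 at −0.61 ± 0.23 was lower. The second Xaf1 probe set, 1443621_at, differed by −0.15 ± 0.21, and the mean of both was 0.15. The interferon list mean overlapped, at 7.64 to 7.93 in B1-8 and 7.44 to 7.71 in V23.

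No survival or death gene was called, beside 0.0233% of all tested genes. Of 16 pro-survival genes, 12 differences were positive, with 4 at an unadjusted p under 0.05 higher in B1-8 (4.78% of all genes) and a median of 0.14, which ran from 0.09 without B1-8 replicate 2 to 0.22 without B1-8 replicate 1. Mcl1, the BCL2 family member that GC B cells depend on, was at 13.72, 13.85 and 13.63 in B1-8 and 13.60, 13.41 and 13.36 in V23 (0.28 ± 0.10). Cflar, an inhibitor of death receptor signalling, differed by 0.28 ± 0.10, Naip2 by 0.74 ± 0.23 and Pim3, a survival kinase, by 0.36 ± 0.14. Bcl2 differed by 0.39 ± 0.20 with overlap, at 8.26 and 7.87 in the lines against 11.94 in naive cells, and Bcl2l1, which encodes BCL-XL, by −0.17 ± 0.16. As the mean of probe sets, Cflar came to 0.17, Bcl2 to 0.65 and Bcl2l1 to −0.35. Of 25 pro-apoptotic genes, 16 differences were negative, 3 had an unadjusted p under 0.05 lower in B1-8 (2.94% of all genes) and 1 higher (4.78%), and the median was −0.09, or −0.05 without B1-8 replicate 1. Bad, a BH3-only protein, differed by −0.36 ± 0.14, and Aifm1, a mitochondrial flavoprotein, by −0.23 ± 0.10. Bmf, another BH3-only gene, was at 10.21 to 10.32 in B1-8 and 10.52 to 10.78 in V23 (−0.39 ± 0.11), a sign that turned to 0.10 with the mean of its probe sets. Casp9, the initiator caspase of the mitochondrial pathway, went the other way at 0.36 ± 0.08, and Bcl2l11, which encodes BIM, differed by 0.16 ± 0.15. As the mean of probe sets, Bad came to −0.15 and Casp9 to 0.15, and Bcl2l11 turned to −0.11.

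Sterol and fatty acid synthesis leaned toward V23. Of 24 tested genes, 21 differences were negative, 5 had an unadjusted p under 0.05 lower in B1-8 (2.94% of all genes) and none higher, and for 13 all B1-8 arrays lay below all V23 arrays (6.63% of all genes). The median was −0.18, and the list mean was 10.65 to 10.79 in B1-8, 10.89 to 10.97 in V23 and 9.57 to 9.73 in naive cells. Msmo1 (1423078_a_at), a methylsterol oxidase of cholesterol synthesis, was at 11.44, 11.42 and 11.52 in B1-8 and 11.82, 11.85 and 11.90 in V23, a tight and separate pair of groups. It differed by −0.40 ± 0.10 (adjusted p = 0.388), Nsdhl, the next enzyme of that pathway, by −0.38 ± 0.10 and Fasn, the fatty acid synthase, by −0.36 ± 0.10. MYC and mTORC1 targets had a smaller median, −0.08 over 31 members, and Srm, the spermidine synthase, differed by −0.42 ± 0.12 beside Slc7a5, which is on both lists. Oxidative phosphorylation had a median of −0.07, or −0.01 without B1-8 replicate 3, and 28 of 29 intervals within 2-fold. In the unfolded protein response, Pdia6, a disulfide isomerase, differed by −0.37 ± 0.10 and Hsp90b1, the chaperone GRP94, by −0.39 ± 0.17. A second Pdia6 probe set, 1430983_at, differed by 0.34 ± 0.19, and the mean of both was −0.01. All 25 members of that list had an interval within 2-fold.

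**Figure D4:**
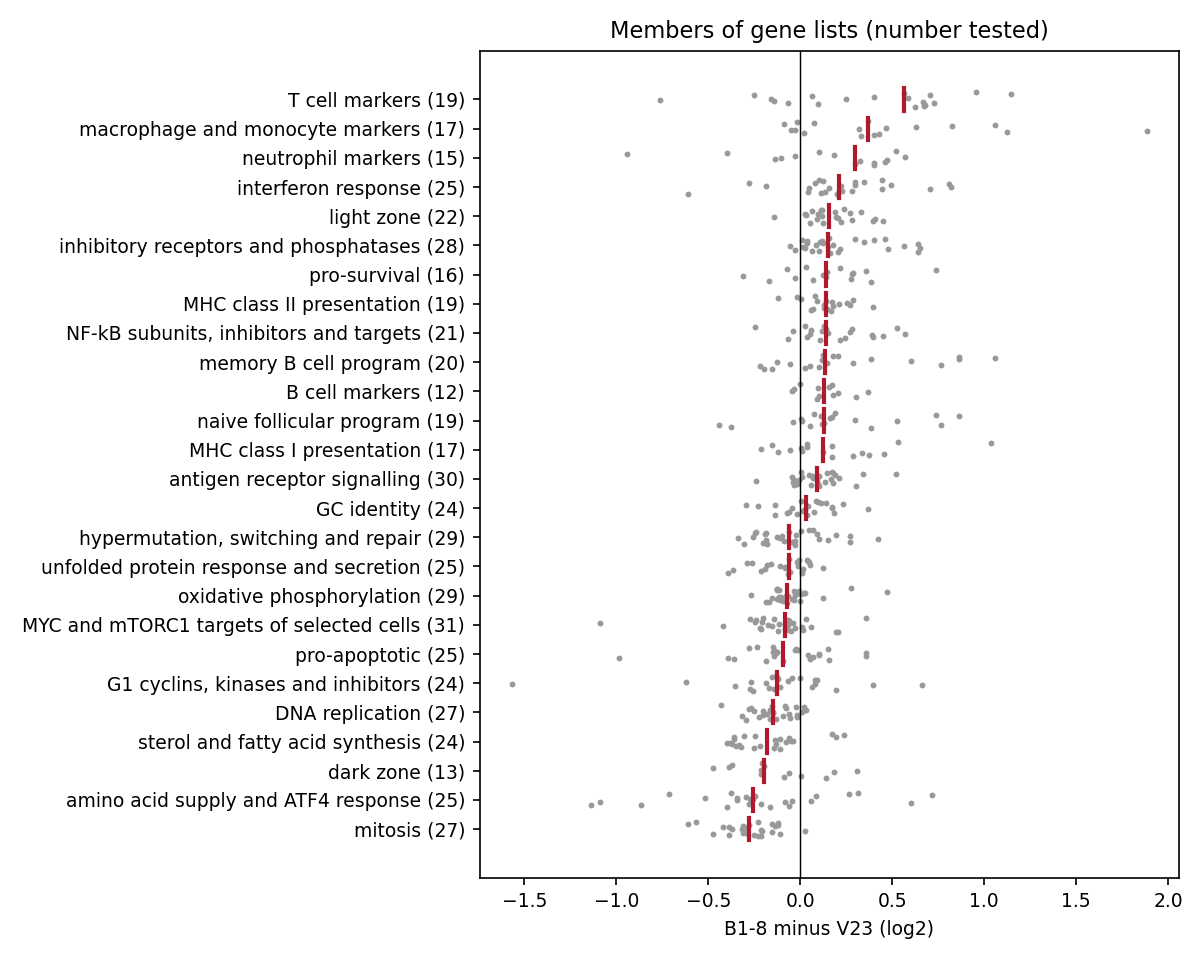
Each grey point is 1 tested member of a gene list, at its B1-8 minus V23 difference (log2, x axis); red bars are list medians and the number of tested members stands in parentheses. Medians run from −0.28 for mitosis and −0.26 for the amino acid list to 0.56 for T cell markers.

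Genes of the naive follicular and memory programmes, whose list means were lower in GC than in naive cells, leaned to the higher side in B1-8. Of 19 naive follicular genes, 16 differences were positive, with 5 at an unadjusted p under 0.05 higher in B1-8 (4.78% of all genes) and 1 lower (2.94%). The median was 0.13, and ran from 0.06 without V23 replicate 3 to 0.26 without B1-8 replicate 1. Of 20 memory genes, 15 were positive, with 4 higher and 0 lower at that p, and the median of 0.13 was 0.07 with quantile normalization and 0.23 without B1-8 replicate 1. Klf3, a quiescence factor on both lists, was at 7.69, 8.00 and 8.09 in B1-8, 7.53, 6.88 and 7.07 in V23 and 11.89 ± 0.11 in naive cells (0.77 ± 0.18, adjusted p = 0.37). This is the brightest of 7 Klf3 probe sets over all 10 arrays. On the GC arrays 1431630_a_at was brighter, at 8.18 in B1-8 and 8.07 in V23, and differed by 0.11 ± 0.26. The rest ran from −0.78, read at 1.53 in B1-8 and 2.31 in V23, to 0.18, and the mean of all 7 was 0.05. Cd55 was at 8.54, 8.54 and 8.63 in B1-8, 7.35, 8.02 and 7.74 in V23 and 11.23 in naive cells. Ly6d differed by 0.74 ± 0.25, Btg2, an antiproliferative gene at 11.35 in naive cells, below B1-8 at 11.79, by 0.53 ± 0.11 and Gpr183, the oxysterol receptor that guides B cells to the outer follicle, by 0.60 ± 0.21. For Klf3, Cd55, Ly6d, Btg2 and Gpr183 the lines did not overlap. The naive list mean did overlap, at 10.12 to 10.44 in B1-8 and 10.02 to 10.24 in V23, against 12.09 to 12.17 in naive samples. An admixture of other B cells in the sort was not tested.

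Plasma cell genes had a median of 0.01 over 24 members, 20 of them with an interval within 2-fold, and the median turned to −0.03 with median centring. Prdm1, which encodes BLIMP1, differed by 0.16 ± 0.29 and Irf4 by −0.14 ± 0.14, or −0.03 as the mean of its probe sets. Among STAT genes, Stat4 (1448713_at), a T helper and NK cell factor, was at 7.31, 7.29 and 7.43 in B1-8 and 4.29, 6.35 and 4.55 in V23. The groups did not overlap but V23 spread over more than 2 log2 units, and the difference was 2.28 ± 0.54 (adjusted p = 0.388). Xist was at 13.47 ± 0.20 in B1-8 and 13.25 ± 0.28 in V23, a difference of 0.22 ± 0.16 that turned to −0.32 with the mean of its probe sets.

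Heavy chain probe sets bear most nearly on the transgenes. Ighm (1427329_a_at) was at 14.70, 14.72 and 14.44 in B1-8 and 14.44, 14.32 and 14.14 in V23 (0.32 ± 0.12, adjusted p = 0.589, and −0.07 with the mean of its probe sets), close to the naive 14.45. Another bright Ighm probe set, 1427351_s_at, differed by 0.47 ± 0.17, and those read at 10.37 to 11.08 in the lines by −0.22 to 0.02. Igha (1429381_x_at) was at 10.49, 9.25 and 8.73 in B1-8 and 7.41, 8.48 and 8.45 in V23, with wide spread in B1-8. Its difference was 1.38 ± 0.46, or 0.88 without B1-8 replicate 1 and 1.76 as the mean of its probe sets. Ighg3 differed by 0.62 ± 0.21, or 0.22 as the mean of its probe sets. That mean includes 1426198_at and 1426199_x_at, read at 1.42 to 2.34 in the lines and lower in B1-8. Another Ighg3 probe set, 1447998_at, was at 8.975 in B1-8 and 7.773 in V23, a wider difference than that of the one used. The probe set 1427851_x_at, assigned both to Ighm and to a heavy chain variable gene and so named by its identifier, was at 11.74 in B1-8 and 9.32 in V23, against 11.04 in naive cells. Its difference was 2.42 ± 0.37, with an adjusted p of 0.203 over all 41235 tested probe sets. Its 3 B1-8 arrays, at 11.14, 11.89 and 12.19, lay above its 3 V23 arrays, at 8.86, 9.76 and 9.32. The lines carry different heavy chain transgenes by construction. The part of the transgene sequences themselves in the difference of this probe set was not tested. The other probe sets with several heavy chain symbols differed by −1.22 ± 0.50 (1452538_at), −1.06 ± 0.55 (1427758_x_at) and 0.77 ± 1.10 (1451947_at), at a signal of 4.85 to 6.89 in the lines.

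Macrophage and neutrophil markers, like T cell markers, had positive medians, and many marker genes were loosely bounded. An interval within 2-fold was reached by 7 of 17 macrophage, 2 of 15 neutrophil, 7 of 19 T cell, 3 of 12 dendritic cell and 6 of 15 stromal markers. Of 17 macrophage and monocyte markers, 13 differences were positive, the median was 0.37, and the list mean was 7.47 to 7.65 in B1-8 and at most 7.30 in V23. C1qb, a complement subunit of macrophages, was at 8.12, 7.83 and 6.98 in B1-8 and 6.87, 5.95 and 6.72 in V23 (1.13 ± 0.42, adjusted p = 0.585). Of 15 neutrophil markers, 10 were positive with a median of 0.30. Without overlap, 3 lay higher in B1-8 (7.07% of all genes), and none had an unadjusted p under 0.05 (7.72%). S100a8 differed by 0.40 ± 0.49 and Ngp by 0.33 ± 0.52, both without overlap and named after their values were seen. Without V23 replicate 2 the medians were 0.14 for macrophage and 0.07 for neutrophil markers. Of 12 B cell markers, all had an interval within 2-fold, and the median was 0.13. The part of macrophages or neutrophils in the differences above was not tested.

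**Figure D5:**
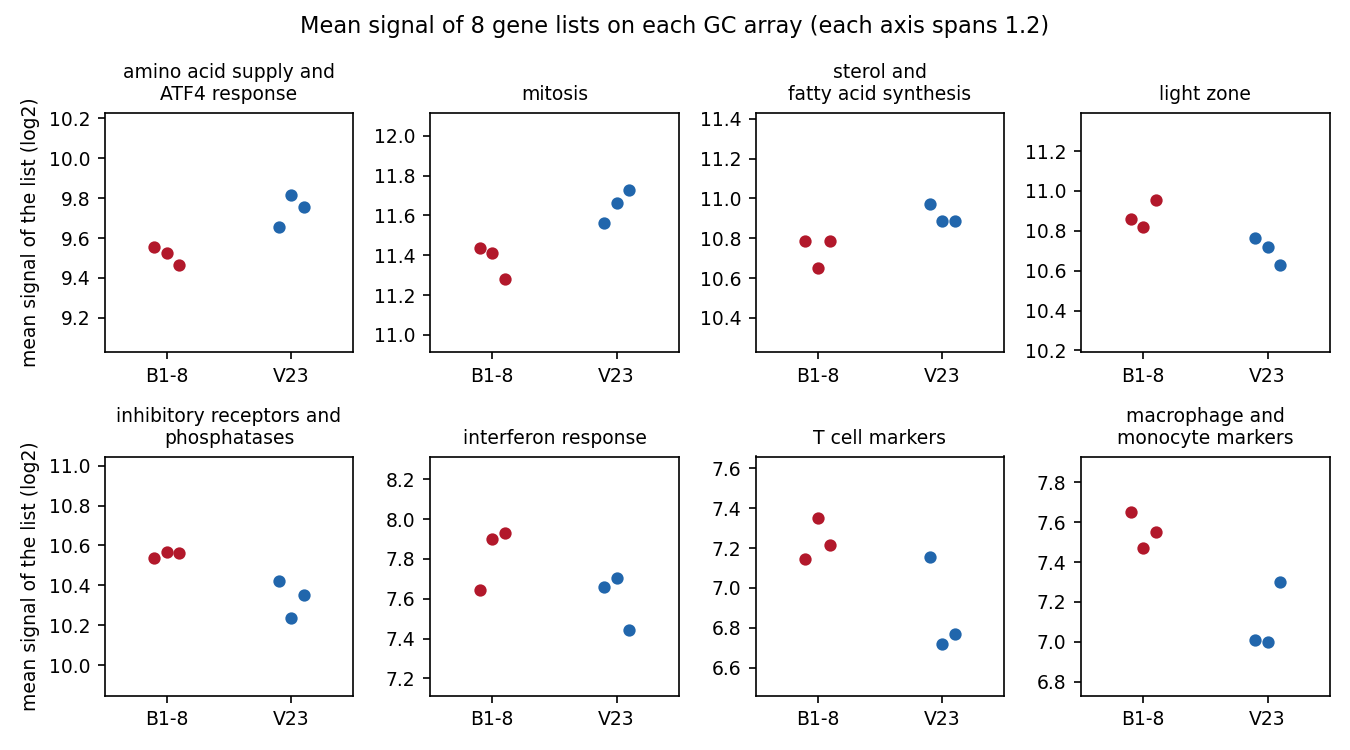
Mean log2 signal of 8 gene lists on each GC array (points; y axes differ in position but each spans the same 1.2 log2 units). The amino acid, mitosis and sterol means are lower on all 3 B1-8 arrays, the light zone and inhibitory receptor means are higher, and the interferon and T cell marker means overlap.

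Both RNA quality controls had the higher mean 3′ minus 5′ difference in B1-8, with arrays that overlapped between the lines. The 3′ minus 5′ difference of the Actb control probe sets was 0.98 ± 0.20 (SD, n = 3) in B1-8 and 0.78 ± 0.09 (n = 3) in V23 (two-sided exact permutation p = 0.2). For Gapdh it was 0.22 ± 0.17 and 0.05 ± 0.11 (exact permutation p = 0.3). With 3 arrays against 3, no exact test can go below p = 0.1, so these tests could not show a difference in RNA quality at 0.05.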

How the data were processed

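The arrays measured biotin-labelled cRNA of sorted splenic B cells. The deposited log2 values were used as the authors gave them. GCRMA is named, without a version, in the submitters' processing notes, but an equal trimmed mean of 500 on every array is the form of MAS5-type scaling, so the method behind the values is uncertain. Of 45101 probe sets, 34958 carry 1 gene symbol, 932 several and 9211 none. Each of 18194 symbols was represented by its brightest probe set on average among those with that symbol alone, and 17204 genes above log2 4 on at least 3 arrays were tested.

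Group means of all 10 arrays were fitted with limma 3.58.1 in R 4.3.3 (empirical Bayes, no trend, 7 residual and 1.46 prior degrees of freedom). Tests were two-sided with Benjamini-Hochberg adjustment, and the method was tested on simulated data. Arrays give no counts, so their number limits the precision. Gene names came from GEO's platform annotation and promoter windows from RefSeq (GRCm38.p6). Named genes were the called genes, those of smallest p up to 10 per direction, the 10 widest differences per direction without overlap at a mean of log2 8 or more, up to 4 members per list by smallest p, and a set of key genes, of which Iglc1 could not be read from an unshared probe set. Probe sets ending in _x_at were left out of the first 3 parts. The samples compared, the gene lists and the naming rule were chosen with earlier results of these data known. Alternatives covered the filter, the probe set rule, quantile and median scaling, a floor at log2 4, the moderation, array weights, the GC arrays alone, a replicate block and each array left out. Figures were drawn with matplotlib.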

Additional observations from a re-analysis of the deposited data

Results flagged for a closer look

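Outside the gene table, 2 probe sets passed the adjusted threshold over all 41235 tested probe sets. The probe set 1447333_at, which has no symbol in the annotation used here, differed by −2.68. Its levels were 3.04, 3.05 and 2.93 in B1-8 and 5.80, 5.77 and 5.50 in V23, all at low signal. The probe set 1449134_s_at of Spic, a transcription factor on the macrophage marker list, differed by 4.16, at means of 5.49 in B1-8, 1.33 in V23 and 8.70 in naive cells. Its V23 arrays, at 1.05, 2.11 and 0.83, lay under the signal of 4 used as a minimum, so 4.16 is not a reliable size. The Spic probe set used in the gene table, 1418555_x_at, differed by 1.06 ± 0.79 with overlap.

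Single naive arrays stood apart from the other 3 for 7 of the genes printed: replicate 1 for Cd2 (11.95) and Ptpn6 (13.02), replicate 2 for Asns (9.08), replicate 3 for Apbb3 (8.80) and replicate 4 for Nfkbie (12.33), Msmo1 (9.62) and Cfp (12.15). Chance flags about 1 group in 20, and these arrays enter the comparison through the estimate of the spread alone.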

How the results depend on the processing

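The 4 calls depended on the setting, and the size of many differences depended on the probe set. With the mean of probe sets, 35 of the 126 printed genes moved by over 1.5 times or changed sign. Over all 22 alternatives, 17 of 2767 differences of these genes changed sign.

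Of the calls, with 1 gene higher and 3 lower in B1-8, the stricter filter left 1 lower, median centring 0 higher and the floor at log2 4 gave 2 higher. The intensity trend with robust moderation gave 12 higher and 5 lower. The mean of probe sets, the GC arrays alone and leaving out naive replicates 2 and 4 gave 0 and 0 by limma, with 786 and 453, 621 and 468, and 745 and 541 genes at an unadjusted p under 0.05. Centring left 521 genes higher at an unadjusted p under 0.05 and 783 higher without overlap.

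Leaving out 1 array gave 0 to 9 genes higher and 0 to 2 lower, the most without V23 replicate 2. Genes lower at an unadjusted p under 0.05 numbered 301 without V23 replicate 3 and 668 without V23 replicate 1. Those without overlap numbered 1217 to 2402 higher and 1140 to 2518 lower, the most without V23 replicate 1, where fewer arrays must be apart.

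Signs turned with the mean of probe sets for Atf4 (0.034), Cdkn1b (−0.388), Bmf (0.099), Ighm (−0.071), Ccnd3 (0.316), Bcl2l11 (−0.113), Fcgr2b (−0.034) and Xist (−0.324), with quantile normalization for S1pr2 (0.017), and with centring for Bcl6 (−0.011) and Ptpn6 (−0.023). Without 1 array, S1pr2 ran from −0.138 to 0.094, Cd86 from −0.01 to 0.136, Cd40 from −0.008 to 0.359, Ptpn6 from −0.021 to 0.06 and Prdm1 from −0.02 to 0.254. The causes were not tested.

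Deviations of same-numbered replicates correlated weakly (r = 0.072, 0.011 and −0.008), beside −0.049 to 0.039 for replicates of different number. With 3 arrays per line, these values cannot show whether the numbers pair the samples. A replicate block gave 0 genes higher and 0 lower by limma, with 923 and 564 at an unadjusted p under 0.05, and 0 and 0 with the GC arrays alone (598 and 467).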
